A study of Mus musculus with 26 samples.

Results

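The 10 genes described here encode the integrin subunits found on leukocytes and platelets: Itgam, Itgal, Itgax and Itgb2, Itga4, Itgb1 and Itgb7, Itga6, and Itga2b and Itgb3. They were taken by symbol, through the Ensembl ID of each row, from a table of 48795 genes, and all 10 were found. RNA was sequenced from C57BL/6 mouse myeloid progenitors transformed either by MN1 or by Hoxa9 and Meis1 together (H9M), in culture with serum, IL3, IL6 and SCF. Each model was studied as LSD1 knockout (KO) and as control (CTL) cells, with 1 µM all-trans retinoic acid (ATRA) and without it. The 8 groups were therefore, for each model, KO with ATRA, KO, CTL with ATRA and CTL, with 3 libraries in each. The knockout was induced with 0.1 µM 4-hydroxytamoxifen for 72 hours, an agent the labels list for the knockout libraries only, so the knockout and the agent cannot be told apart. The strain label of every RNA library, knockouts included, reads CreERT2-;LSD1TM1Schuele. Nothing in the labels says that the 3 libraries of a group are separate cultures, and p-values here measure the spread between libraries alone, which may be technical. All MN1 libraries share 1 LR number in their labels and all H9M libraries another. What it marks is not stated, and it cannot be told apart from the model. H3K4me2, a histone mark of active and poised promoters, was measured by ChIP-seq in lineage-negative bone marrow cells of GFI1-KD and GFI1-WT C57BL/6 mice, 1 library each; how the GFI1-KD animals were generated is not in the labels, and the title of that library reads GFI-KD.

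Integrins are cell surface receptors made of 1 alpha and 1 beta subunit, and a subunit generally reaches the surface only with its partner. Itgb2 pairs with Itgam to give CD11b/CD18 (Mac-1), with Itgal to give LFA-1 and with Itgax to give CD11c/CD18; these receptors carry leukocyte adhesion, and CD11b is a standard marker of myeloid differentiation. Itga4 pairs with Itgb1 to give VLA-4, which holds progenitors in the bone marrow through VCAM-1 and fibronectin, or with Itgb7 to give the receptor for the gut addressin MAdCAM-1. Itga6 pairs with Itgb1 to give a laminin receptor, and Itga2b with Itgb3 to give the fibrinogen receptor of platelets, whose alpha subunit, CD41, also marks early haematopoietic progenitors. LSD1, encoded by Kdm1a, removes methyl groups from H3K4 and is recruited by the repressor GFI1, and ATRA is a ligand of the retinoic acid receptors that drives myeloid differentiation.

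Of the 10 genes, 6 had a RefSeq promoter entry (GRCm38.p6). The 150 bases before the annotated start are shown for Itgam, Itgb7 and Itga2b, read 5′ to 3′ on the strand of the gene. Of these 6 genes, they are the 3 whose H3K4me2 signal differed most between the GFI1 libraries. Capitals mark GAGGAA, the core bound by PU.1 and related ETS factors, or TTCCTC, the same motif on the other strand. The bases shown lie at chr7:128062490-128062639 on the plus strand for Itgam, chr15:102231936-102232085 on the minus strand for Itgb7, and chr11:102469884-102470033 on the minus strand for Itga2b. The Itgb7 start used, 102231935, lies inside the gene, whose outer 5′ end is at 102233405, so its bases are not those before that end.
Itgam: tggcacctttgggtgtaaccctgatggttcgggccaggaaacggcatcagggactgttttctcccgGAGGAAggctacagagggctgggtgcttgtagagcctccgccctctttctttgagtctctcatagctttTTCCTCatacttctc
Itgb7: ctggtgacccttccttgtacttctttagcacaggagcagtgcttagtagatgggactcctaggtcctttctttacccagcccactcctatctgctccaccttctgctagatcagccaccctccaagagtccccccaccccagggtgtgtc
Itga2b: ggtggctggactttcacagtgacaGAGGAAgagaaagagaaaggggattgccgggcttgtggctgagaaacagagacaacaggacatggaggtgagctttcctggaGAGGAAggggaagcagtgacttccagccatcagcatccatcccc

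In the 300 bases that RefSeq gives around each start (250 before and 50 after it), Itgam held 3 copies of GAGGAA on either strand, with first bases at -84, -15 and 32 from the start. Itga2b held 2, Itgb1 and Itgb7 1 each, and Itgax and Itga4 none, while 27.4% of 21262 promoters of that length held at least 1. The copy of Itgb7 lies past its start and so outside the bases shown. AAATCA, the GFI1 core, and AGGTCA, a retinoid receptor half-site, were in none of the 6 windows, against 12.4% and 14.7% of all promoters. GATAA, the GATA core, was found in Itgax (22.5% of all promoters), and TGTGGT, the RUNX core, in Itgax and Itga4 (15.0% of all). The windows of Itgam, Itgb7 and Itga2b held none of these other 4 motifs, so none overlaps the capitals, and a match is a description of the sequence alone.

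The libraries held 22402558 to 32674685 counts each. Values are counts-per-million (CPM), scaled to the library total, which are not divided by gene length, so levels are compared between libraries and not between genes. Kdm1a stood at 1.09% of its level in the matching controls in MN1 KO with ATRA, 0.747% in MN1 KO, 7.51% in H9M KO with ATRA and 0.693% in H9M KO. Summed neutrophil markers (8 genes) moved with the knockout, at 435 to 474 CPM in MN1 KO against 13.7 to 15.4 CPM in MN1 CTL, and at 1508 to 1800 CPM in H9M KO against 24.02 to 25.9 CPM in H9M CTL, where Ltf was at 0. Mmp8, the neutrophil collagenase, made up most of these sums, averaging 438 CPM in MN1 KO and 1548 CPM in H9M KO, while Camp, Ngp and Ltf each averaged under 0.5 CPM. Summed monocyte and macrophage markers (8 genes) also moved, at 993 to 1007 CPM in MN1 KO against 560 to 574 CPM in MN1 CTL and at 3317 to 3436 CPM in H9M KO against 1223 to 1258 CPM in H9M CTL. So did summed mast cell and basophil markers (6 genes), at 2318.4 to 2342.5 CPM in MN1 KO against 1303 to 1376 CPM in MN1 CTL. In H9M cells they summed to 67.3 to 69.1 CPM in KO against 48.5 to 50.4 CPM in CTL. Of the 5 tested, 5 were called higher in MN1 KO, and 2 higher and 1 lower in H9M KO. The part of these cell type markers in the knockout changes below was not tested. In bulk RNA, more cells of a type and more RNA per cell cannot be told apart. The B cell marker Ms4a1 was at 0 in all 8 groups, and Slc4a1, an erythroid marker, was at 0 in all but MN1 KO with ATRA.

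All 10 genes entered the test, but Itgax did so only through MN1 KO with ATRA and MN1 KO, the 2 groups above the filter of 0.383 CPM, and Itga2b only through the 4 MN1 groups. No fold change of Itgax is therefore given, and none of Itga2b for H9M cells, and the counts of called genes below leave Itgax out. Changes are log2 fold changes ± SE from edgeR's quasi-likelihood test, with p-values adjusted by Benjamini-Hochberg over 14663 genes, and an adjusted p under 0.05 counts as a call.

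**Figure D1:**
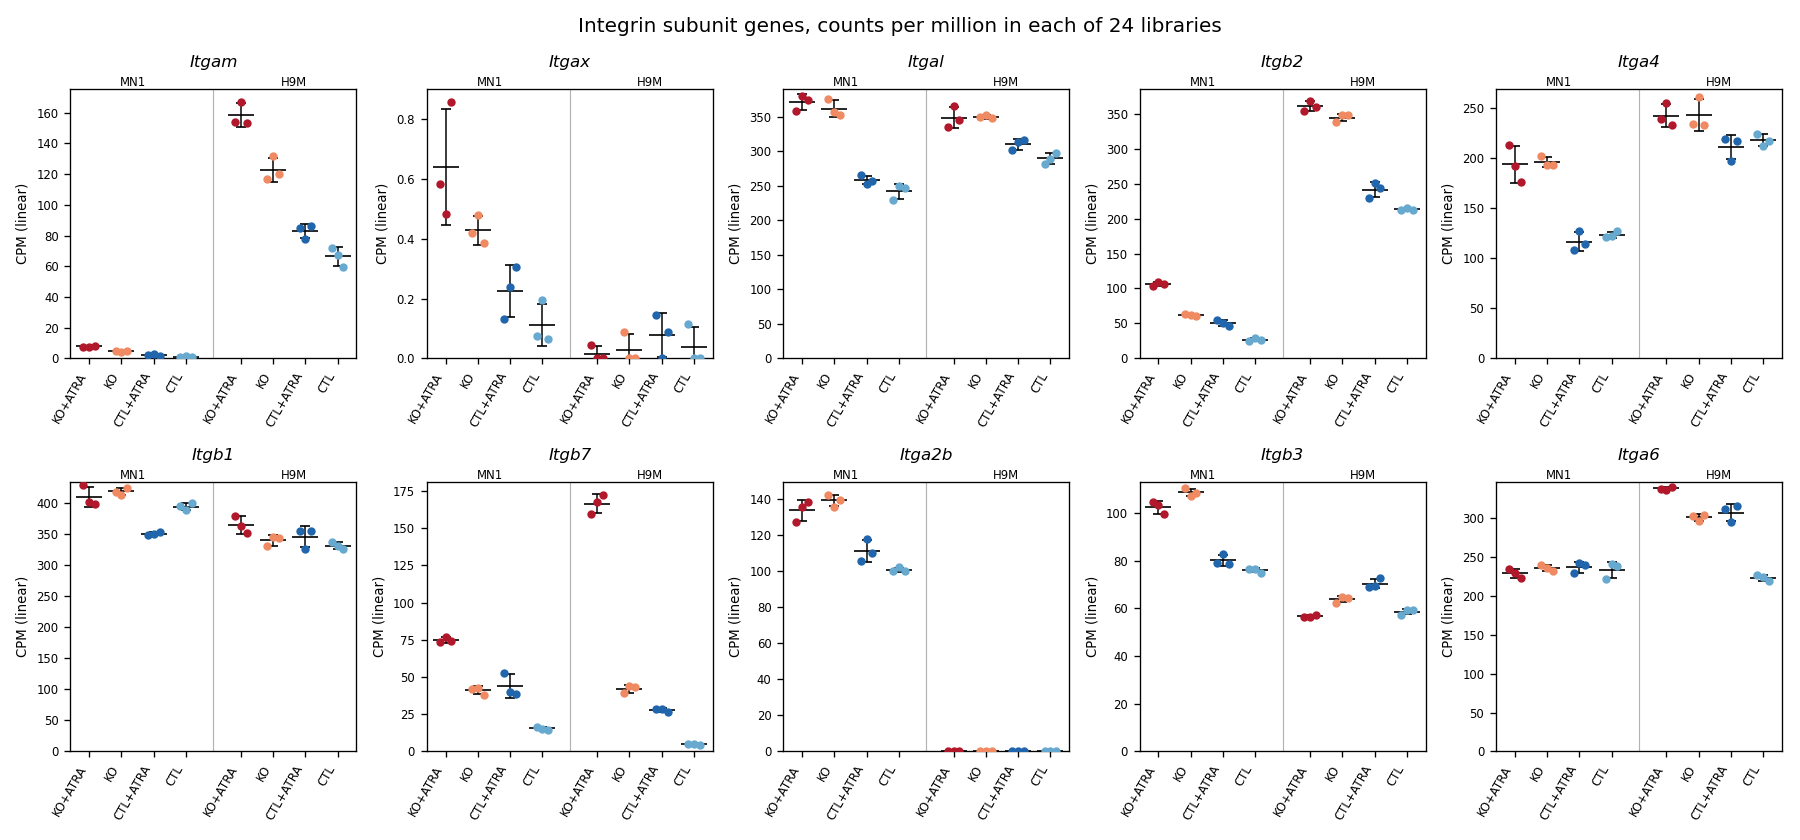
CPM (linear axes, from 0) of the 10 integrin subunit genes in each of the 24 libraries, with the group mean (line) and SD (bars, n = 3), for MN1 cells on the left and H9M cells on the right of each panel. Itgb7 is highest in the 3 H9M KO libraries with ATRA, at 160 to 172 CPM, Itgam and Itgb2 are low in all MN1 libraries, and Itga2b is near 0 in all H9M libraries.

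LSD1 knockout without ATRA was accompanied by higher RNA of most of these genes in both models. In MN1 cells 8 of the other 9 genes were called higher and none lower, where 28.7% of all genes tested were called higher, 26.3% lower and 55% in either direction. In H9M cells 7 were called higher and none lower, where 26.1% of all genes were called higher, 25.4% lower and 51.5% in either direction. Without Itgax and Itga2b, the median log2 fold change of the other 8 genes was 0.62 in MN1 cells and 0.37 in H9M cells, against 0.01 and 0.00 over all genes tested. With ATRA in both arms, 8 genes were called higher and none lower in MN1 cells (28.6% of all genes were higher, 28.6% lower and 57.2% called in all). In H9M cells with ATRA 6 were called higher and 1 lower, against 26.7% and 24.4% of all genes (51.1% called in all).

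**Figure D2:**
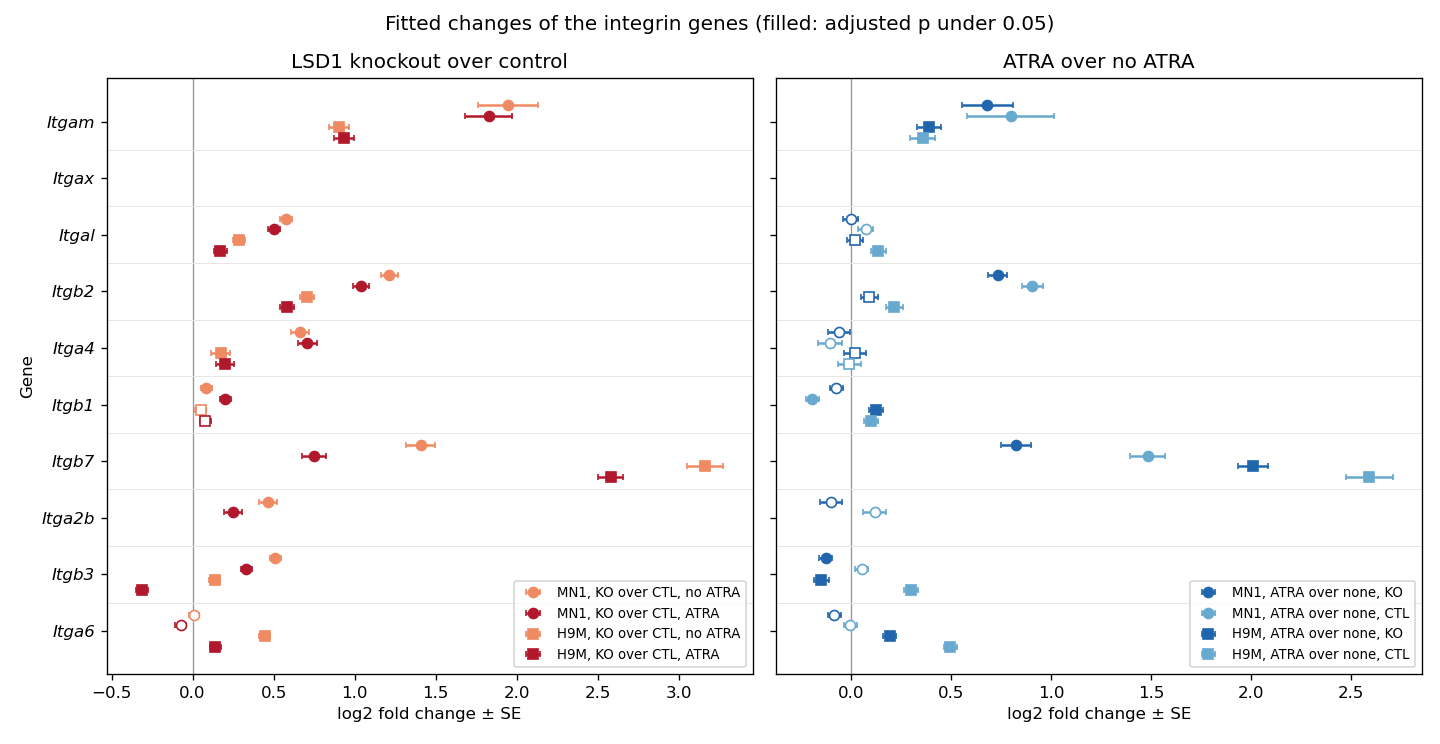
Log2 fold change ± SE of each integrin gene for LSD1 knockout over control (left) and ATRA over no ATRA (right), with circles for MN1 and squares for H9M cells and filled symbols for an adjusted p under 0.05. Itgb7 in H9M cells shows the largest knockout change (3.16) and the largest ATRA change (2.59) of the genes drawn, and Itgb3 in H9M cells lies below 0 in the knockout comparison with ATRA (-0.31). Itga2b is drawn for MN1 cells only and Itgax not at all.

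Itgam, which encodes CD11b, the alpha subunit of Mac-1 (ENSMUSG00000030786.18, GRCm38 chromosome 7, 128062640 to 128118491), was much lower in MN1 than in H9M cells and rose with both treatments in each. In MN1 cells it had 4.92, 4.49 and 4.82 CPM in KO against 1.09, 1.32 and 1.24 CPM in CTL, a log2 fold change of 1.94 ± 0.18 (adjusted p = 2.55e-10, 3.85-fold). The groups did not overlap, and 129, 112 and 125 counts in KO against 29, 41 and 38 counts in CTL lay behind them. In H9M cells it had 117, 132 and 120 CPM in KO against 72.2, 67.3 and 59.8 CPM in CTL (0.90 ± 0.06, adjusted p = 2.22e-13). Every H9M KO library lay above every H9M CTL library. When both arms had ATRA the change was 1.83 ± 0.15 in MN1 cells (7.60, 7.75 and 8.08 CPM in KO with ATRA against 2.03, 2.91 and 1.52 CPM in CTL with ATRA) and 0.93 ± 0.06 in H9M cells (154, 167 and 154 CPM against 85.0, 77.5 and 86.4 CPM). The log2 change with the knockout was larger in MN1 cells by 1.04 ± 0.20 (adjusted p = 1.54e-04), while the highest MN1 library, at 8.08 CPM, stayed below the lowest H9M CTL library.

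Itgb2, the common beta subunit of the leukocyte integrins (ENSMUSG00000000290.13, chromosome 10, 77530329 to 77565708), followed the same directions. MN1 KO libraries had 63.5, 62.2 and 60.6 CPM and MN1 CTL libraries 25.2, 29.0 and 25.7 CPM (1.21 ± 0.05, adjusted p = 2.67e-18). H9M KO libraries had 338, 347 and 347 CPM and H9M CTL libraries 212, 215 and 212 CPM (0.71 ± 0.04, adjusted p = 9.89e-15). Neither pair of groups overlapped. The knockout change was 1.04 ± 0.05 in MN1 and 0.58 ± 0.04 in H9M cells with ATRA in both arms, and without ATRA it was larger in MN1 cells by 0.51 ± 0.07 (adjusted p = 6.69e-07).

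Itgal, the alpha subunit of LFA-1 (ENSMUSG00000030830.18, chromosome 7, 127296139 to 127335137), changed less. It had 375, 357 and 352 CPM in MN1 KO against 229, 249 and 248 CPM in MN1 CTL (0.57 ± 0.04, adjusted p = 8.47e-14). In H9M KO it had 349, 353 and 348 CPM, against 282, 289 and 298 CPM in H9M CTL (0.29 ± 0.04, adjusted p = 1.87e-07). The knockout groups of both models thus lay close together, although MN1 CTL was lower than H9M CTL (log2 difference -0.35 ± 0.04, adjusted p = 2.02e-09).

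Itgax, which encodes the alpha subunit CD11c (ENSMUSG00000030789.9, chromosome 7, 128129526 to 128150657), was near the limit of these libraries. MN1 KO libraries had 11, 12 and 10 counts and MN1 CTL libraries 2, 6 and 2 counts. With ATRA, the counts were 15, 12 and 28 in MN1 KO and 4, 7 and 8 in MN1 CTL. No test is given because the gene passed the filter through the knockout groups alone. That selection favoured higher counts in the knockout groups, so these counts are a description only. The 12 H9M libraries had 0 to 4 counts each, at which depth a fall or a small rise could not be seen.

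Itgb7 (ENSMUSG00000001281.9, chromosome 15, 102215994 to 102233405), the beta subunit that shares Itga4 with Itgb1, had the largest change in H9M cells with either treatment, among the 8 genes above the filter there. H9M KO libraries had 38.9, 44.1 and 43.0 CPM and H9M CTL libraries 5.01, 4.97 and 4.24 CPM (3.16 ± 0.11, adjusted p = 1.09e-20, 8.95-fold). With ATRA in both arms the values were 160, 167 and 172 CPM in KO against 28.6, 28.3 and 26.7 CPM in CTL (2.58 ± 0.08, adjusted p = 3.23e-22). The 4 H9M groups were therefore fully separated, in the order KO with ATRA, KO, CTL with ATRA and CTL. MN1 KO libraries had 42.2, 42.9 and 38.0 CPM and MN1 CTL libraries 16.7, 15.3 and 14.4 CPM (1.41 ± 0.09, adjusted p = 2.76e-14). With ATRA, MN1 KO had 73.2, 76.8 and 74.0 CPM and MN1 CTL 53.0, 39.7 and 38.4 CPM (0.75 ± 0.07, adjusted p = 6.97e-10). In MN1 cells the KO group and the CTL group with ATRA overlapped, while KO with ATRA lay above and CTL below both. The knockout change was smaller in MN1 than in H9M cells (difference -1.75 ± 0.15, adjusted p = 9.77e-11), in the opposite direction to the differences of Itgam and Itgb2.

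Itga4, the alpha 4 subunit (ENSMUSG00000027009.18, chromosome 2, 79255426 to 79333114), lies over the gene Cerkl, and the strand counted is not given, so its counts are uncertain. MN1 KO libraries had 202, 193 and 194 CPM and MN1 CTL libraries 122, 122 and 127 CPM (0.66 ± 0.06, adjusted p = 3.25e-11). In H9M cells the values were 234, 262 and 233 CPM in KO and 224, 213 and 217 CPM in CTL, a change of 0.17 ± 0.06 (adjusted p = 0.0106). That H9M call rested on single libraries, with an adjusted p of 0.118 without KO replicate 2 and of 0.0521 without CTL replicate 2. The MN1 change exceeded the H9M change by 0.49 ± 0.08 (adjusted p = 1.5e-05).

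Itgb1, the beta subunit shared by VLA-4 and the laminin receptor (ENSMUSG00000025809.15, chromosome 8, 128685654 to 128733579), was higher in MN1 KO by a narrow margin. MN1 KO libraries had 417, 413 and 424 CPM and MN1 CTL libraries 395, 388 and 399 CPM (0.08 ± 0.03, adjusted p = 0.0396). This call was lost without any 1 of 5 libraries of the 2 groups (adjusted p 0.172 without CTL replicate 2, 0.0522 without CTL replicate 3, 0.0842, 0.0507 and 0.134 without KO replicates 1, 2 and 3) and without the filter on low counts (0.161). In the presence of ATRA the MN1 change was 0.20 ± 0.03 (adjusted p = 7.42e-06; 428, 401 and 398 CPM in KO against 348, 349 and 353 CPM in CTL). H9M KO and CTL libraries overlapped, at 330 to 345 CPM and 325 to 337 CPM (0.05 ± 0.03, adjusted p = 0.229). With ATRA, H9M KO libraries had 379, 362 and 351 CPM and H9M CTL libraries 355, 326 and 355 CPM, which overlapped (0.08 ± 0.03, adjusted p = 0.0594). This difference passed with RLE scaling (adjusted p = 0.0325), with the 1 CPM filter (0.0171) and with DESeq2 (0.0239), and without CTL replicate 1 (0.0399), CTL replicate 3 (0.0453) or KO replicate 3 (0.0278).

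Itga6, the alpha subunit of the laminin receptor (ENSMUSG00000027111.15, chromosome 2, 71786886 to 71858427), rose with the knockout in H9M cells and was not called in MN1 cells. It had 303, 297 and 304 CPM in H9M KO against 227, 224 and 220 CPM in H9M CTL (0.44 ± 0.03, adjusted p = 9.19e-13). In MN1 cells it had 241, 236 and 232 CPM in KO against 222, 241 and 239 CPM in CTL (0.01 ± 0.03, adjusted p = 0.86). The groups overlapped in MN1 cells only, and the difference between the models was -0.44 ± 0.05 (MN1 minus H9M, adjusted p = 8.4e-09). In the presence of ATRA the H9M change was 0.14 ± 0.03 (adjusted p = 5.37e-04). MN1 libraries with ATRA had 235, 230 and 223 CPM in KO against 230, 243 and 240 CPM in CTL and overlapped (-0.07 ± 0.03, adjusted p = 0.0586). Itga6 was called lower there without CTL replicate 1 (-0.10, adjusted p = 0.0258) or without KO replicate 1 (-0.09, adjusted p = 0.0441).

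Itga2b, the CD41 alpha subunit (ENSMUSG00000034664.13, chromosome 11, 102453297 to 102469883), separated the models. MN1 CTL libraries had 99.8, 102 and 100 CPM, from 8862 counts together, and the 3 H9M CTL libraries had 4, 1 and 0 counts. The 12 H9M libraries held 0 to 7 counts each. Because Itga2b passed the filter through the MN1 groups alone, no ratio between the models is given. Within MN1 cells, KO libraries had 142, 136 and 140 CPM against those CTL values (0.46 ± 0.06, adjusted p = 3e-08), with no overlap. When both arms had ATRA the values were 127, 136 and 138 CPM in KO against 106, 118 and 110 CPM in CTL (0.25 ± 0.06, adjusted p = 3.46e-04). Megakaryocyte and platelet markers (7 genes) summed to 13.1 to 15.1 CPM in MN1 KO, 9.28 to 11.5 CPM in MN1 CTL and 2.85 to 3.81 CPM in H9M CTL. They summed to 11.7 to 14.1 CPM in H9M KO and 16.3 to 18.9 CPM in H9M KO with ATRA, where Itga2b averaged 0.043 and 0.078 CPM. With the MN1 knockout 5 of the 6 markers tested were called higher and 1 lower (median 1.06 on the log2 scale), and their part in the Itga2b change was not tested.

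Itgb3, the beta partner of Itga2b (ENSMUSG00000020689.4, chromosome 11, 104608000 to 104670476), was present in both models. MN1 KO libraries had 110, 107 and 108 CPM and MN1 CTL libraries 76.7, 76.6 and 74.9 CPM (0.51 ± 0.03, adjusted p = 5.6e-14). In H9M cells KO libraries had 62.3, 64.7 and 64.3 CPM and CTL libraries 57.3, 59.4 and 59.3 CPM (0.14 ± 0.04, adjusted p = 0.00187). With ATRA in both arms Itgb3 was lower in H9M KO, at 56.2, 56.5 and 57.2 CPM against 69.0, 69.5 and 72.7 CPM in H9M CTL (-0.31 ± 0.04, adjusted p = 1.06e-08). Of the 10 genes, leaving out Itgax, no other was called lower in the 4 knockout comparisons with all libraries. Itga6 in MN1 cells with ATRA was called lower when 1 library was left out, as given above. For Itgb3, the knockout comparison with ATRA in MN1 cells gave 0.33 ± 0.03 (adjusted p = 7.5e-10).

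ATRA was then compared with no ATRA within each genotype. In control cells, 3 of the 9 genes rose and 1 fell in MN1 cells, against 11.4% and 10.4% of all genes (21.8% in all), and 7 rose and none fell in H9M cells, against 12.9% and 12.3% (25.2% in all). In knockout cells 3 rose and 1 fell in MN1 cells, against 8.42% and 10.4% of all genes (18.8% in all), and 4 rose and 1 fell in H9M cells, against 13.9% and 15.4% (29.4% in all). The ATRA and the knockout comparisons of a model share libraries, so they are not independent of each other.

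Itgb7 gave the largest ATRA change in each of the 4 settings. It rose by 1.48 ± 0.09 in MN1 CTL (adjusted p = 4.93e-14), by 0.82 ± 0.08 in MN1 KO, by 2.59 ± 0.12 in H9M CTL (adjusted p = 3.3e-17) and by 2.01 ± 0.07 in H9M KO on the log2 scale. No library with ATRA overlapped its counterparts without ATRA. The ATRA change in control cells was smaller in MN1 than in H9M cells (difference -1.11 ± 0.15, adjusted p = 3.99e-06).

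Of the beta 2 group, Itgb2 rose with ATRA in MN1 CTL to 55.3, 50.3 and 46.9 CPM (0.91 ± 0.05, adjusted p = 3.5e-14) and in MN1 KO to 103, 109 and 107 CPM (0.73 ± 0.05). In H9M CTL it reached 229, 250 and 244 CPM (0.22 ± 0.04, adjusted p = 3.17e-04), and in H9M KO the change of 0.09 ± 0.04 missed the threshold (adjusted p = 0.112). The H9M KO groups with and without ATRA did not overlap, and that change passed with only the groups compared (adjusted p = 0.0431). The change in control cells was larger in MN1 cells by 0.69 ± 0.07 (adjusted p = 7.87e-09). Itgam rose in all 4 settings, by 0.80 ± 0.22 in MN1 CTL (adjusted p = 0.00746), 0.68 ± 0.13 in MN1 KO, 0.36 ± 0.06 in H9M CTL and 0.39 ± 0.06 in H9M KO. Its MN1 CTL call rested on replicate 2 of the ATRA libraries, without which the change was 0.53 and the adjusted p 0.113. Itgal passed only in H9M CTL (0.14 ± 0.04, adjusted p = 0.00833, and 0.0506 without CTL replicate 1). Itgax had 19 counts in MN1 CTL with ATRA against 10 in MN1 CTL.

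Itga4 was called in none of the 4 ATRA comparisons, with log2 fold changes from -0.10 to 0.02. Itgb1 fell by 0.19 in MN1 CTL (-0.19 ± 0.03, adjusted p = 8.56e-05; 348, 349 and 353 CPM with ATRA against 395, 388 and 399 CPM without) and rose by 0.13 ± 0.03 in H9M KO (adjusted p = 0.00532). In H9M CTL it was 0.10 ± 0.03 higher (adjusted p = 0.0331) while the groups overlapped. That call was lost without the low-count filter (adjusted p = 0.149), with library totals alone (0.207), and without CTL replicate 2 or 3 or ATRA replicate 1 or 3 (0.09 to 0.152). The ATRA change of Itgb1 in control cells differed between the models by -0.29 ± 0.05 (MN1 minus H9M, adjusted p = 6.2e-05). Itga6 rose to 312, 295 and 316 CPM in H9M CTL (0.50 ± 0.03, adjusted p = 3.22e-13) and to 338, 337 and 341 CPM in H9M KO (0.19 ± 0.03), while its MN1 libraries, at 230, 243 and 240 CPM in CTL with ATRA, overlapped those without ATRA. The ATRA change of Itga6 in control cells was lower in MN1 cells (difference -0.50 ± 0.05, adjusted p = 2.03e-09).

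Itgb3 rose with ATRA in H9M CTL (0.30 ± 0.04, adjusted p = 8.73e-08) and fell by 0.15 in H9M KO (-0.15 ± 0.04, adjusted p = 0.00185). It also fell by 0.13 in MN1 KO (-0.13 ± 0.03, adjusted p = 0.0059; 0.0671 without the low-count filter and 0.0799 with library totals alone) and was not called in MN1 CTL (0.05 ± 0.03, adjusted p = 0.284). Itga2b was not called in either MN1 comparison, at 0.12 ± 0.06 in CTL and -0.10 ± 0.06 in KO. The MN1 CTL groups did not overlap, and their change passed with only the groups compared (adjusted p = 0.0336).

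The knockout and ATRA changes were tested against each other by their interaction, the knockout change with ATRA minus that without. In H9M cells 3 of the genes were called lower and none higher, where 2.79% of all genes were called lower, 2.25% higher and 5.04% in either direction. These were Itgb7 (-0.58 ± 0.15, adjusted p = 0.0139), Itgb3 (-0.45 ± 0.05, adjusted p = 2.49e-07) and Itga6 (-0.30 ± 0.05, adjusted p = 3.6e-05). For Itgb7 and Itga6 both treatments raised the gene alone, and together they gave less than the sum of the 2 log2 changes. The Itgb7 call was lost without replicate 3 of H9M CTL (-0.51, adjusted p = 0.078). In H9M KO with ATRA Kdm1a stood at 7.51% of its control level, against 0.693% in H9M KO, and its part in these interactions was not tested. In MN1 cells 2 genes were called lower, where 1.68% of all genes were lower, 1.09% higher and 2.78% called in either direction. They were Itgb7 (-0.66 ± 0.12, adjusted p = 7.33e-04) and Itgb3 (-0.18 ± 0.05, adjusted p = 0.0298), and the Itgb3 call was lost in 9 of the 12 fits that leave out 1 MN1 library (-0.19 to -0.16) and in 4 other settings. Itga2b was not called in MN1 cells (-0.22 ± 0.08, adjusted p = 0.169) but passed with only the groups compared (0.0476).

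The level of an alpha subunit was set against that of its beta partner as the ratio of their counts in each library. Changes of such a ratio do not depend on gene length, while the ratio itself does, and the RNA ratio says nothing of the surface receptors. With 3 libraries against 3 an exact permutation test cannot go below a p of 0.1, so ranges are given. The ratio of Itga4 to Itgb7 was 1.36 to 1.53 in H9M KO with ATRA, 5.42 to 6.02 in H9M KO, 6.97 to 8.13 in H9M CTL with ATRA and 42.8 to 51.2 in H9M CTL. In MN1 cells it was 2.38 to 2.91 in KO with ATRA, 4.50 to 5.10 in KO, 2.05 to 3.20 in CTL with ATRA and 7.30 to 8.83 in CTL. All 4 H9M groups were separate, and in MN1 cells both groups with ATRA overlapped each other and lay below both groups without it. The ratio of Itga4 to its other partner, Itgb1, stayed within 0.606 to 0.759 in all H9M libraries and was 0.457 to 0.484 in MN1 KO against 0.309 to 0.318 in MN1 CTL.

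The ratio of Itgal to Itgb2 was lower with the knockout, at 5.74 to 5.91 in MN1 KO against 8.58 to 9.62 in MN1 CTL and 1.00 to 1.03 in H9M KO against 1.33 to 1.41 in H9M CTL. ATRA gave 3.48 to 3.52 in MN1 KO and 4.80 to 5.50 in MN1 CTL, both below the same genotype without ATRA. The ratio of Itgam to Itgb2 was higher with the knockout, at 0.0722 to 0.0796 in MN1 KO against 0.0434 to 0.0484 in MN1 CTL and 0.345 to 0.379 in H9M KO against 0.282 to 0.341 in H9M CTL. The ratio of Itga2b to Itgb3 in MN1 cells was 1.27 to 1.29 in KO against 1.302 to 1.336 in CTL, a narrow gap with no overlap. The ratio of Itga6 to Itgb1 was 0.861 to 0.918 in H9M KO against 0.673 to 0.679 in H9M CTL, and overlapped in MN1 cells at 0.547 to 0.577 in KO and 0.563 to 0.622 in CTL.

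**Figure D3:**
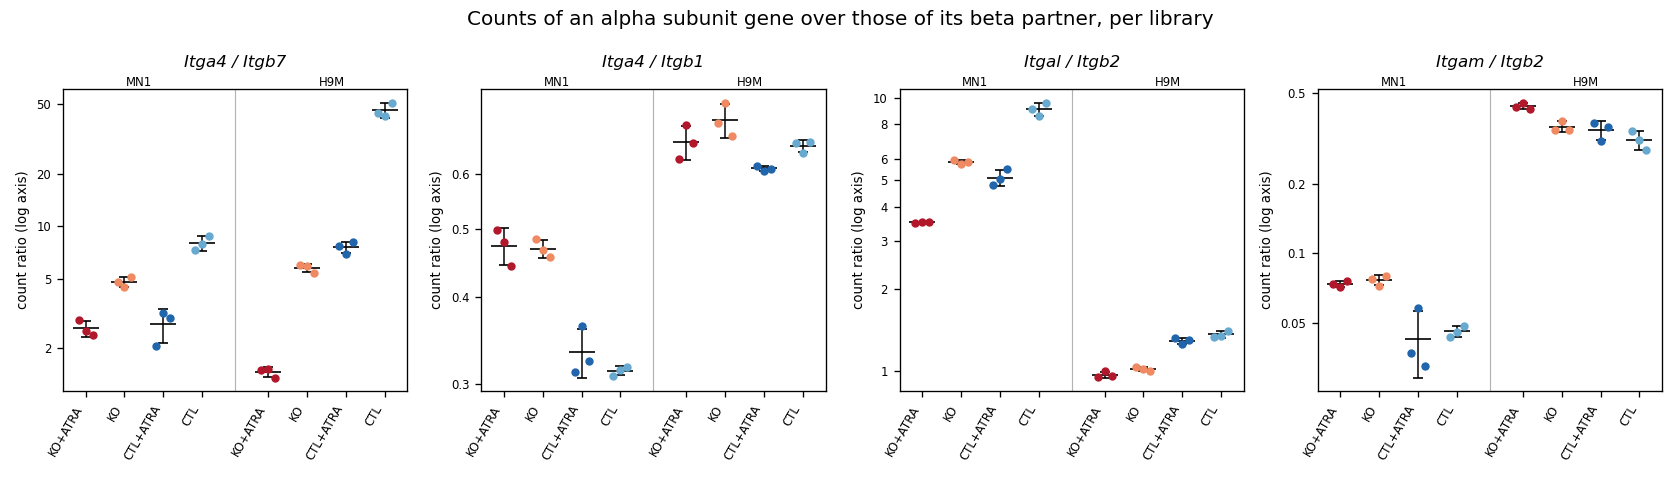
Counts of an alpha subunit gene divided by those of its beta partner in each library (log axes), with mean and SD over the 3 libraries of a group. The ratio of Itga4 to Itgb7 spans 1.36 to 51.2 over the H9M libraries, whereas that of Itga4 to Itgb1 spans 0.606 to 0.759 in the same libraries.

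The models differed most in Itga2b, Itgam and Itgb2. MN1 CTL stood below H9M CTL in Itgam (log2 difference -5.84 ± 0.12, adjusted p = 7.48e-28), in Itgb2 (-3.08 ± 0.05, adjusted p = 7.06e-30) and in Itga4 (-0.91 ± 0.06). It stood above H9M CTL in Itga2b, as given above, in Itgb7 (1.61 ± 0.13, adjusted p = 1.03e-12), in Itgb3 (0.29 ± 0.03) and in Itgb1 (0.16 ± 0.03). Together with Itgal, 4 genes were called lower and 4 higher, where 35.9% of all genes were lower, 37.6% higher and 73.5% called in all, and Itga2b had to differ because it entered the test through MN1 cells alone. Itga6 was not called (-0.02 ± 0.03, adjusted p = 0.558), and Itgax had 10 counts in MN1 CTL and 3 in H9M CTL. Mast cell and basophil markers (6 genes) summed to 1303 to 1376 CPM in MN1 CTL and to 48.5 to 50.4 CPM in H9M CTL, where Fcer1a was at 0. Their part in the model differences was not tested, and the LR number cannot be told apart from the model. For the knockout change, 5 genes differed upward and 2 downward between the models (MN1 minus H9M), where 14.2% of all genes differed in each direction and 28.4% in either. For the ATRA change in control cells 1 differed upward and 4 downward, where 6.64% and 7.15% of all genes did (13.8% in all).

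Genes whose pattern was most like that of each integrin gene were sought over the 24 libraries by the Pearson correlation of log2(CPM + 0.5) after removal of each model's mean, among 2243 genes that varied by at least 1 on the log2 scale. The libraries share groups and depth, so these values are descriptions. Itgam was close to Myo1f, a myosin of leukocytes (r = 0.971). Itgb2 was closest to Tbc1d8 (0.978), Itgal to Zfp516 (0.981) and Itga4 to Osbpl3 (0.966). Itgb7 was closest to Tgfbr2, a receptor of TGF-beta (0.982), and Itga6 to Basp1 (0.931). Itgb3 was closest to Plk2 (0.891), Itgax to Fkbp10 (0.891), Itgb1 to Zfp608 (0.856) and Itga2b to Armc3 (0.799). The values of Itgax and Itga2b are limited by depth, as both genes had few counts in every H9M library. Itgax also had few in MN1 cells and passed the filter through the MN1 knockout groups alone. Among the integrin genes themselves Itgam was closest to its partner Itgb2 (0.947) and next to Itgal (0.932), Itga4 was close to Itgal (0.906), and Itgb7 was closest to Itga6 (0.828), while its value with its partner Itga4 was 0.377.

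Other genes of integrin biology were followed as lists, beside which 28.7% of all genes were called higher and 26.3% lower in MN1 KO (median log2 fold change 0.01), and 26.1% higher and 25.4% lower in H9M KO (median 0.00). Of 16 further integrin subunits, 12 were tested, and in MN1 cells 7 rose and 1 fell with the knockout without ATRA, with a median log2 fold change of 1.02. Itga2 passed the filter through knockout groups, with 1 count in all of MN1 CTL and 18 in MN1 KO. In H9M cells it had 1 count in CTL and 32 in KO. Such selection favours a rise, so the counts of this list, in both models, are a description only. Itga3, the alpha subunit of another laminin receptor, averaged 58.9 CPM in MN1 KO and 0.416 CPM in MN1 CTL. That control level is near the filter of 0.383 CPM, so no fold change of Itga3 is given. Itgb5, a beta partner of Itgav, averaged 67.8 CPM in MN1 KO and 15.8 CPM in MN1 CTL (2.09 ± 0.06). In H9M cells 6 rose and none fell (median 0.46). They included Itga1, a collagen receptor subunit, at 46.0 CPM in KO against 1.52 CPM in CTL (4.94 ± 0.13), and Itgb5 (1.49 ± 0.05).

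Of 30 genes of integrin activation and signalling, 26 were tested, and 14 rose and 5 fell in MN1 KO (median 0.10), against 13 and 8 in H9M KO (median 0.34). The share lower in H9M KO was near the 25.4% of all genes, and that in MN1 KO was below the 26.3% of all genes. Ptk2, the focal adhesion kinase, rose in both (1.53 ± 0.08 in MN1 and 1.99 ± 0.09 in H9M cells). Rasgrp2, which activates Rap1 upstream of integrins in platelets, fell in both (-0.84 ± 0.05 in MN1 and -0.67 ± 0.04 in H9M cells). Fermt3, the kindlin of blood cells, rose by 0.12 ± 0.04 in MN1 KO and fell by 0.23 in H9M KO (-0.23 ± 0.03). Fyb, an adaptor that links T cell signals to integrins, rose by 2.55 ± 0.09 in H9M KO.

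Of 18 ligands and counter-receptors, 13 were tested, and 10 rose and 1 fell in MN1 KO (median 1.05), against 6 and 4 in H9M KO (median 0.22). In H9M KO the share of ligands that fell was near the 25.4% of all genes, while 28.7% of all genes rose in MN1 KO. Icam1, the ligand of LFA-1 and Mac-1, averaged 83.4 CPM in MN1 KO and 26.3 CPM in MN1 CTL (1.66 ± 0.05), and 61.6 CPM in H9M KO and 24.2 CPM in H9M CTL (1.36 ± 0.05). C3, whose fragment iC3b binds Mac-1, rose by 3.76 ± 0.07 in MN1 KO and by 2.22 ± 0.04 in H9M KO. Thbs1, a matrix ligand of several integrins, fell in both (-1.68 ± 0.10 in MN1 and -3.78 ± 0.08 in H9M cells). Vcam1, the ligand of VLA-4, had no count in the MN1 libraries and averaged 28.0 CPM in H9M KO and 44.9 CPM in H9M CTL (-0.67 ± 0.06). Of 13 other leukocyte adhesion receptors, all tested, 8 rose and 4 fell in MN1 KO (median 0.30) and 6 rose and 1 fell in H9M KO (median 0.61). The share that fell in MN1 KO was near the 26.3% of all genes. Selplg, the ligand of P-selectin, averaged 440.1 CPM in MN1 KO and 200.1 CPM in MN1 CTL (1.13 ± 0.05), and 359 CPM in H9M KO and 208 CPM in H9M CTL (0.80 ± 0.05). The part of the neutrophil, monocyte and mast cell markers in these lists was not tested either.

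H3K4me2 was counted within 1 kb of each annotated start, from 9538627 reads in GFI1-KD and 8949072 in GFI1-WT. With 1 library per group there is no test, and the intervals are exact 95% binomial intervals of the ratio that cover counting error only. Of 14325 promoters with at least 20 reads, 15.8% lay past 1.5-fold in either direction and 10.6% past it upward, and the median ratio was 0.979. Itgam had 187 reads in GFI1-KD and 58 in GFI1-WT, which is 19.6 reads-per-million (RPM, of all kept reads) in GFI1-KD and 6.48 RPM in GFI1-WT and a ratio of 3.03 (2.24 to 4.14). Itgb7 had 271 reads in GFI1-KD and 113 in GFI1-WT, a ratio of 2.25 (1.8 to 2.83). Its window, around a start at 102231935 inside the gene, does not reach the outer 5′ end at 102233405. Of the 6 genes with an annotated start, Itgam and Itgb7 lay past 1.5-fold upward.

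Itga2b had 72 reads in GFI1-KD and 99 in GFI1-WT, a ratio of 0.682 (0.497 to 0.934), short of the 1.5-fold limit. Itga4, with 279 reads in GFI1-KD and 260 in GFI1-WT, had a ratio of 1.01 (0.847 to 1.20), and Itgb1, with 298 reads in GFI1-KD and 281 in GFI1-WT, one of 0.995 (0.843 to 1.18). Itgax held few reads, 35 in GFI1-KD and 31 in GFI1-WT, and its interval of 0.634 to 1.78 includes both a gain and a loss. For the 4 genes without a promoter entry both ends of the gene were counted, and the end with lower coordinates held nearly all reads. There, Itgb3 had 374 reads in GFI1-KD and 197 in GFI1-WT (ratio 1.78, 1.495 to 2.13), Itgb2 had 256 in GFI1-KD and 149 in GFI1-WT (1.61, 1.31 to 1.99), and Itgal had 247 in GFI1-KD and 152 in GFI1-WT (1.53, 1.24 to 1.88). Itga6 had 333 reads in each library there (0.938, 0.804 to 1.095). Lineage-negative marrow is a mixture of progenitors, so a change in its cells and a change of the mark per cell cannot be told apart. GFI1-KD marrow and LSD1 KO cultures are different cells, and no comparison between them was tested.

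**Figure D4:**
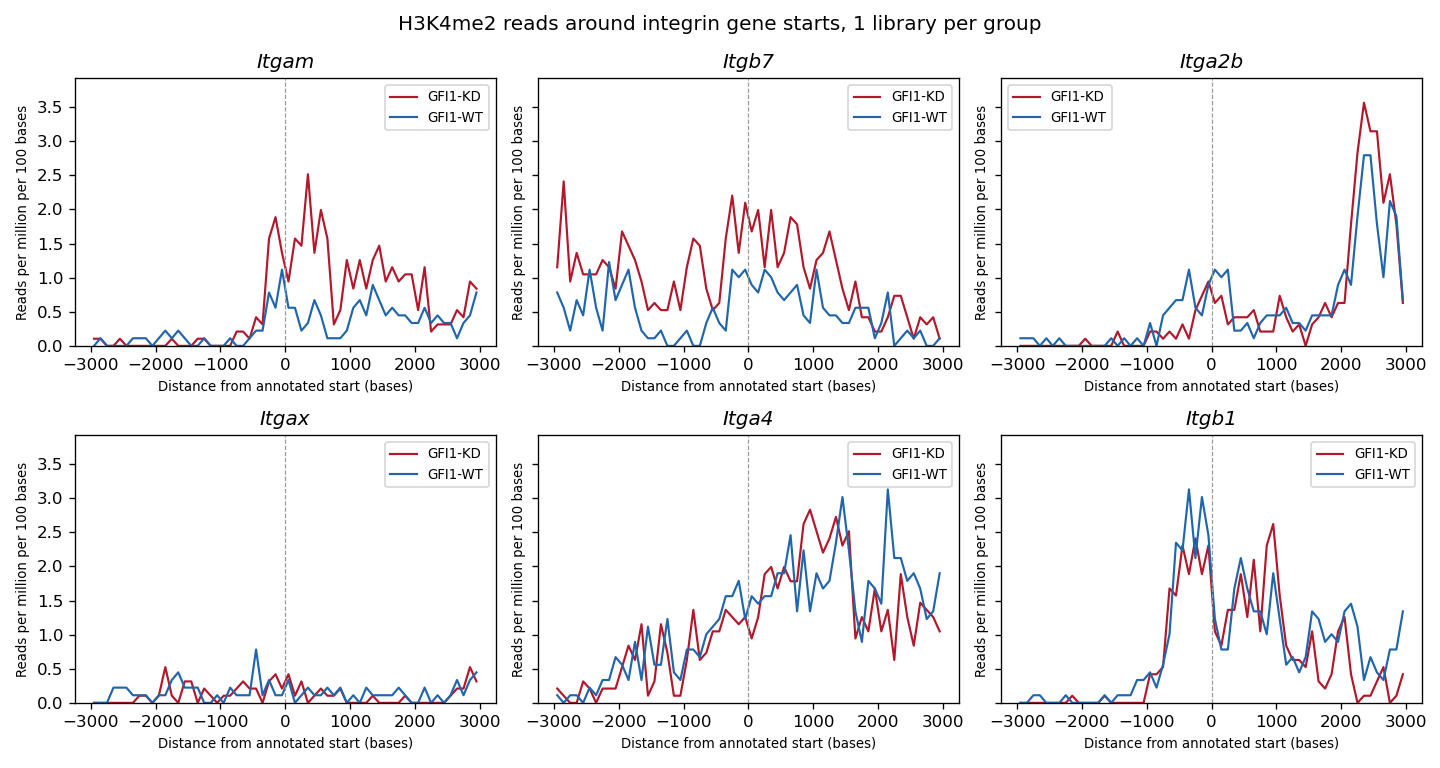
H3K4me2 RPM in bins of 100 bases from 3 kb before to 3 kb after the annotated start (dashed line) of the 6 genes with a RefSeq start, 1 library each of GFI1-KD (red) and GFI1-WT (blue). Within 1 kb of the start of Itgam and Itgb7 the GFI1-KD line lies mostly above, with summed ratios of 3.03 and 2.25, whereas for Itga4 and Itgb1 the lines cross (1.01 and 0.995).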

How the data were processed

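RNA values are the deposited counts, whole numbers per gene and library; the submitters' processing notes name STAR 2.5.3 and mm10. The library kit was stranded, per the labels; the tool, annotation and strand of the counting were not given in the sources used here. Each line of the deposited ChIP tables is an aligned read with a score, which was used as mapping quality (at least 10 kept, 9538627 of 9588899 reads in GFI1-KD and 8949072 of 9000433 in GFI1-WT); the notes name CASAVA 1.8.2, BWA and bedtools 2.27.0 on GRCm38. No input was used here.

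Symbols were matched by Ensembl ID (48349 matched, 446 did not). Counts were filtered by filterByExpr, scaled by TMM and fitted in edgeR 4.0.16 (R 4.3.3) as 1 model of 8 groups, with 16 residual degrees of freedom and a common biological coefficient of variation of 4%. By glmQLFTest 13 two-sided comparisons were made, each adjusted by Benjamini-Hochberg over 14663 genes. The procedure was tested on simulated counts. The alternatives were RLE scaling, no filter or 1 CPM in 3 libraries, DESeq2 1.42.0, a replicate block, only the groups compared, each library left out and, chosen after seeing the data, library totals alone. For H3K4me2 they were a 2 kb window, all reads, and scaling by the median promoter. Loci and promoters come from RefSeq (GRCm38.p6), starting from 1. Replicates of a group differed by more than sampling noise (chi-square per gene of 2.05 or more). All 10 integrin genes are described, with at most 4 called genes per further list, by smallest adjusted p, except that Fermt3, Vcam1, Mmp8 and, for MN1 cells, Thbs1 were chosen after their values were seen. The genes and lists were chosen with earlier results of these data known. Some genes that this rule would name are not reported here.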

Additional observations from a re-analysis of the deposited data

Results flagged for a closer look

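These differences between groups passed a test of the difference itself (edgeR, adjusted p under 0.05); none is explained here. The knockout change with ATRA minus that without was -0.58 for Itgb7, -0.45 for Itgb3 and -0.30 for Itga6 in H9M cells, and -0.66 for Itgb7 and -0.18 for Itgb3 in MN1 cells, all on the log2 scale.

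The knockout change without ATRA, MN1 minus H9M, was 1.04 for Itgam, 0.29 for Itgal, 0.51 for Itgb2, 0.49 for Itga4 and 0.38 for Itgb3, and it was -1.75 for Itgb7 and -0.44 for Itga6. The ATRA change in control cells, MN1 minus H9M, was 0.69 for Itgb2, -0.29 for Itgb1, -1.11 for Itgb7, -0.25 for Itgb3 and -0.50 for Itga6. Groups of 3 were too small for a test of outlying libraries, but each library was left out in turn. The Itgb7 interaction in H9M cells was then lost without H9M CTL replicate 3 (adjusted p = 0.078). The Itgb3 interaction in MN1 cells was lost in 9 such fits.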

How the results depend on the processing

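Of 1628 alternative values for 110 tested results on the integrin genes, 1541 kept their direction and their side of the threshold, 32 lost the call, 13 newly passed, and 42 changed sign. No called result changed sign, and 8 of the 75 called results lost the call under at least 1 alternative. None of 336 alternative values of the pair ratios and none of 42 of the H3K4me2 ratios moved by more than their spread or interval. The number of genes called for the MN1 knockout by ATRA interaction was 2, and 1 with RLE scaling, without the filter and with library totals alone, and 1 to 2 when a library was left out.

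The sign changes were of results that were not called. Itga4 with ATRA in H9M CTL was 0.0056 with RLE scaling, 0.00205 with the 1 CPM filter and 0.00434 with DESeq2. Itgal with ATRA in MN1 KO was 0.0177 with RLE scaling, 0.0187 with the 1 CPM filter, 0.017 with DESeq2, 0.0395 with library totals alone and 0.00552 with only the groups compared. Itga6 in MN1 over H9M CTL was 0.00678 with RLE scaling, 0.00715 with DESeq2 and 0.0668 with library totals alone. Itga6 was -0.00273 in MN1 KO over CTL without the filter, and with ATRA in MN1 CTL it was 0.00265 with the 1 CPM filter, 0.0197 with library totals alone and 0.00266 with only the groups compared. With library totals alone, ATRA in H9M KO gave -0.00451 for Itgal and -0.00399 for Itga4. The cause was not tested.

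Leaving out 1 library gave ranges across 0 for Itga4 with ATRA in H9M CTL (-0.0363 to 0.0342), H9M KO (-0.0244 to 0.0766) and MN1 KO (-0.129 to 0.00316) and for its interaction in H9M (-0.0158 to 0.0856) and MN1 cells (-0.0239 to 0.11). So it did for Itga6 with ATRA in MN1 CTL (-0.0307 to 0.018), with the MN1 knockout (-0.0095 to 0.0226) and between models (-0.0383 to 0.018), and for Itgal with ATRA in H9M KO (-0.0214 to 0.0512) and MN1 KO (-0.0197 to 0.0288). The interactions of Itgam (-0.0338 to 0.101 in H9M and -0.295 to 0.156 in MN1 cells) and of Itgb1 in H9M cells (-0.0103 to 0.0517) did too.

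Replicate numbers did not pair the libraries: same-numbered libraries of different groups correlated at -0.0462 to 0.0821 in their deviations, and 0 of 27 pairs exceeded 0.1. With a replicate block, Itgb1 in H9M KO over CTL with ATRA newly passed (0.08, adjusted p = 0.04995), as it did in the settings given with its value, and no other call changed. Depth limits Itgax in all groups and Itga2b in H9M cells, where 0 to 7 counts per library leave no room to see a fall or a small rise.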
